A study of Mus musculus with 24 samples.

Results

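The 37 genes described here encode the glucose transporters, glycolytic enzymes, lactate and pyruvate handling proteins, 2 gluconeogenic enzymes, and the oxygen-sensing factors and targets of the hypoxia response. They were taken by symbol from a list, by a rule that uses no measured value, and all 37 were found once among the 49568 genes of both expression tables. The list itself was chosen with earlier results of these data known. Bulk Smart-seq2 RNA-seq of mouse liver ductal cells (DCs) and the stromal cells around them was measured in 2 experiments of 12 samples each. In the first, 4 populations were sorted from the undamaged livers of 3 littermates aged 12 weeks, named A, E and F: DCs, and the PDGFRα+SCA1+, PDGFRα+SCA1- and PDGFRα-SCA1+ fractions of the stroma. All these animals, DC donors included, were heterozygous for B6.129S4-Pdgfratm11(EGFP)Sor/J, in which the Pdgfra locus drives a nuclear green fluorescent protein, so PDGFRα was read from the reporter. In the second, wild-type C57BL/6 mice aged 8 to 12 weeks gave DCs and SCA1+ mesenchymal cells (SCA1+Msc), which were selected on SCA1 but not on PDGFRα. There, 6 groups of 2 samples each were profiled: both cell types at day 0, and after 15 days DCs grown as organoids in expansion medium (EM organoids), DCs grown as organoids across a transwell membrane from SCA1+Msc in mesenchymal medium (co-cultured organoids), and SCA1+Msc alone or co-cultured in mesenchymal medium. By the study's methods, the SCA1+Msc put in culture came from 2 littermates and the DCs put in culture from 2 others. The SCA1+Msc had first been expanded on the plate in mesenchymal medium before the transwell culture, so they had been in culture for longer than the DCs. EM organoids and co-cultured organoids therefore differed in medium as well as in the presence of SCA1+Msc, and the effects of the 2 cannot be told apart.

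Glycolysis breaks glucose down to pyruvate in the cytosol, and pyruvate is either reduced to lactate and exported or oxidized in mitochondria. Hypoxia-inducible factors (HIFs) are hydroxylated by oxygen-dependent prolyl hydroxylases and degraded when oxygen is present. When oxygen falls, HIFs accumulate and bind core sequences such as ACGTG with their partner ARNT. They raise many glycolytic genes together with the hydroxylase Egln3 and targets such as Car9 and Bnip3. In the liver, hepatocytes are the main site of gluconeogenesis, which Fbp1 and Pck1 serve.

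Depth was 19.6 M to 25.6 M assigned reads per freshly sorted sample. Transwell samples held 19.3 M to 28.1 M assigned reads, both as recovered from the low values of the tables. A level of 0 allows up to 3 reads, and this covers counting error only. Levels are per length, as deposited (named TPM) for the freshly sorted cells and as TPM for the transwell, and are not compared between the experiments. The 8 ductal markers summed to 56578 to 76156 in sorted DCs and 51900 to 53914 in DCs at day 0. The 10 mesenchymal markers summed to 30650 to 53838 in both PDGFRα+ fractions but to 334 to 520 in PDGFRα-SCA1+ cells, in which the 10 endothelial markers summed to 7412 to 10083, against 41.1 to 90.8 in the PDGFRα+ fractions, although the sort had excluded CD31+ cells. In SCA1+Msc at day 0 the mesenchymal markers summed to 24817 to 26409, yet all 12 hepatocyte markers were present as well and summed to 25544 to 30547, the 6 erythroid markers to 8678 to 10762 and the ductal markers to 1199 to 2552. The 10 endothelial markers were present in them too and summed to 698 to 770. After culture of SCA1+Msc the hepatocyte sum was 73.9 to 87.3 alone, with Apoa1, Fabp1, Cps1, Tat and Hpd at 0, and 52.3 to 483 in co-culture. The endothelial sum was then 200 to 311 alone and 234 to 360 in co-culture. In bulk samples fewer cells of a type and less RNA per cell cannot be told apart. Several members share much of their sequence with near-identical gene copies, and the reads had been filtered on mapping quality before counting. The share of 50-base windows of a member's transcripts that also occurs in another gene was 53.9% for Pgk1, 47.2% for Bnip3, 36.2% for Pgam1, 26.0% for Eno1, 25.8% for Pkm and 25.1% for Gapdh, and the levels of these genes are uncertain.

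The first question was how these genes are distributed among the ductal and stromal cells of the undamaged liver. Slc2a1, Aldoc, Eno1, Egln3 and Ndrg1 were higher in fresh DCs than in each stromal fraction. Slc2a3, Hk1, Hk2, Pkm, Ldha and Epas1 were higher in each stromal fraction than in DCs. Some of these calls, those of Egln3 and Ndrg1 among them, depended on single samples, as given below. Eno2 and Slc16a3 were higher than in DCs in both PDGFRα+ fractions. Against DCs, 9 of 37 members were higher and 6 lower in PDGFRα+SCA1+ cells, where 9.85% of the 17028 genes tested were higher and 14.0% lower (limma on log2(value + 1), Benjamini-Hochberg adjusted p under 0.05). In PDGFRα+SCA1- cells 8 members were higher and 8 lower, against 9.98% and 18.9% of all genes. In PDGFRα-SCA1+ cells 9 were higher and 6 lower, against 11.5% and 11.3%. The share of members higher was 24.3%, 21.6% and 24.3%, and the share lower was 16.2%, 21.6% and 16.2%. Both lay above the shares of all genes in each fraction. The median log2 difference of the members was 0.03, 0.13 and 0.62, beside medians over all genes of -0.28, -0.47 and -0.04. For PDGFRα+SCA1- cells quantile normalization gave 2161 genes higher and 2522 lower in place of 1699 and 3212.

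**Figure D1:**
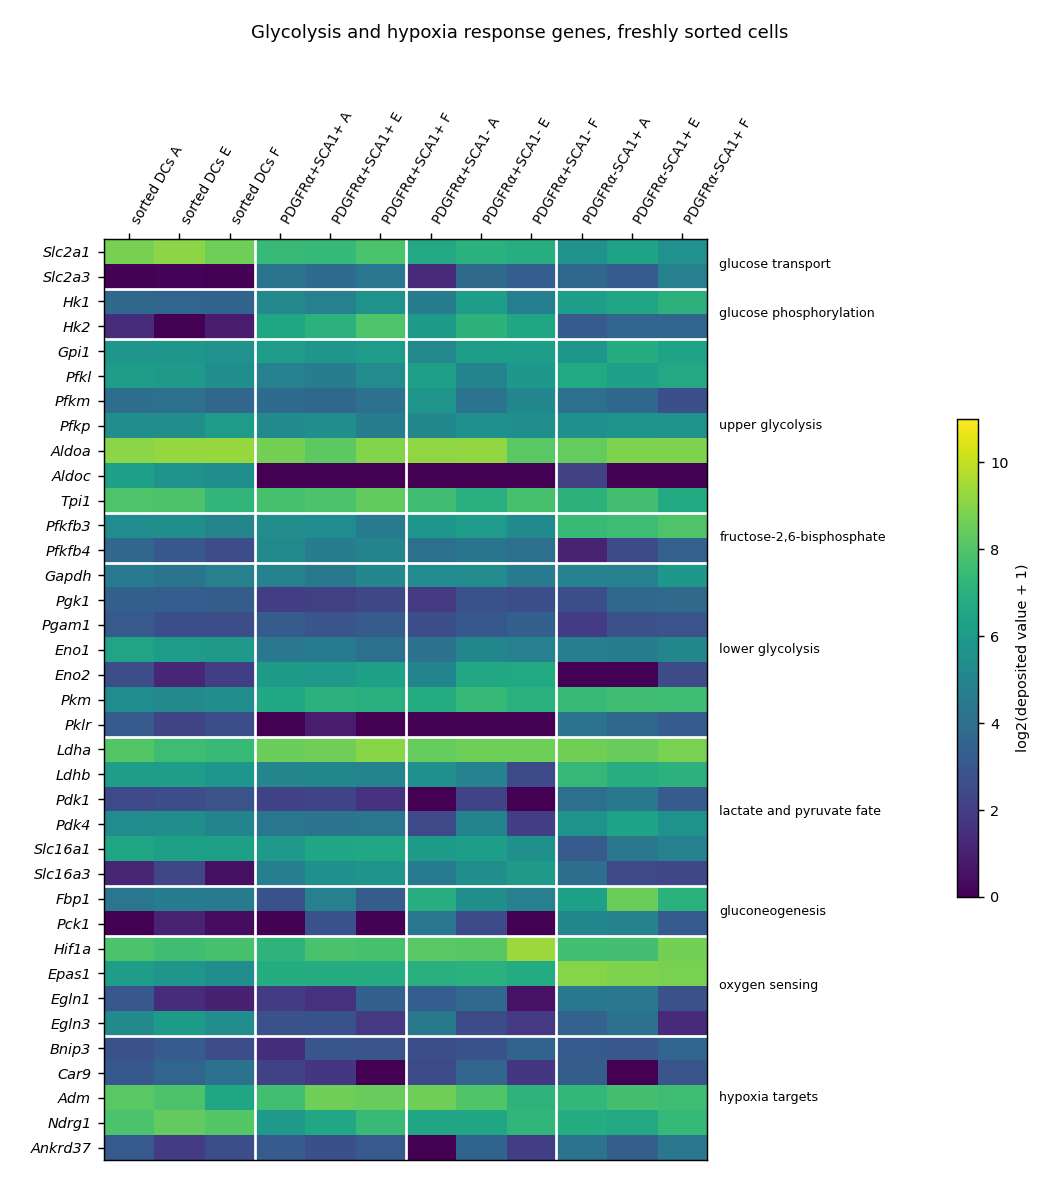
Levels of the 37 genes in freshly sorted cells. Rows are genes grouped by role, columns are the 12 samples (population and mouse), and color is log2(deposited value + 1). Slc2a1, Aldoc and Eno1 are brightest in the DC columns, Hk2, Eno2 and Slc16a3 in the PDGFRα+ columns, and Pfkfb3 and Epas1 in the PDGFRα-SCA1+ columns.

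Glucose enters cells through facilitative transporters. Slc2a1, which encodes the widespread transporter GLUT1, read 433, 536 and 385 in DCs of mice A, E and F, 175, 166 and 232 in PDGFRα+SCA1+ cells, 98.9, 130 and 113 in PDGFRα+SCA1- cells, and 48.3, 83.4 and 46.3 in PDGFRα-SCA1+ cells. The 4 populations did not overlap. Its log2 difference from DCs was -1.24 ± 0.27 (SE, adjusted p = 0.0050) in PDGFRα+SCA1+ cells, -1.97 ± 0.27 (adjusted p = 0.00017) in PDGFRα+SCA1- cells and -2.95 ± 0.27 (adjusted p = 8.3e-06) in PDGFRα-SCA1+ cells. Slc2a3, the high-affinity transporter GLUT3, was at 0 in DCs of 2 mice and at 0.0772 in the third. It read 13.6 to 18.8 in PDGFRα+SCA1+ cells, 1.47 to 12.8 in PDGFRα+SCA1- cells and 7.90 to 26.6 in PDGFRα-SCA1+ cells, above every DC sample, and passed the test in all 3 (adjusted p = 0.00074, 0.0092 and 0.0012).

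Hexokinases trap glucose in the cell as glucose-6-phosphate. Hk2, the inducible hexokinase, was near absent from DCs at 1.67, 0.0256 and 0.858, and read 87.5, 135 and 252 in PDGFRα+SCA1+ cells, 63.2, 138 and 89.9 in PDGFRα+SCA1- cells, and 7.86, 11 and 11.1 in PDGFRα-SCA1+ cells. This was the largest rise of any member from DCs in both PDGFRα+ fractions, 6.40 ± 0.49 (SE, adjusted p = 1.8e-06) and 5.76 ± 0.49 (adjusted p = 4.2e-06) on the log2(value + 1) scale. Hk1, the housekeeping hexokinase, was also lowest in DCs (10.5 to 11.6) and rose to 26.5 to 47.4, 23.5 to 68.7 and 68.9 to 132 in the same order. Hk1 was thus highest in PDGFRα-SCA1+ cells and Hk2 in the PDGFRα+ cells.

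Of the 7 enzymes that turn glucose-6-phosphate into triose phosphates, only Aldoc passed the test against DCs. This brain-type aldolase read 74.1, 49.1 and 43.2 in DCs and was at 0 in all 6 PDGFRα+ samples, so it was at least 394-fold lower there, with the floor taken per library. In PDGFRα-SCA1+ cells it read 3.54 in mouse A and 0 in E and F. The main aldolase Aldoa did not differ detectably, with 550 to 631 in DCs and 291 to 598 over the 9 stromal samples. Its log2 difference in PDGFRα+SCA1- cells was -0.36, with a 95% interval of -0.996 to 0.282. Gpi1, Pfkl, Pfkm, Pfkp and Tpi1 also did not pass against DCs.

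The bifunctional enzymes Pfkfb3 and Pfkfb4 set fructose-2,6-bisphosphate, the allosteric activator of phosphofructokinase. Pfkfb3 read 174, 189 and 247 in PDGFRα-SCA1+ cells and 22.0 to 65.0 in every other sample, and was 2.39 ± 0.32 (SE) higher than in DCs on the log2 scale (adjusted p = 0.00017). Pfkfb4 went the other way among the stromal fractions, with 23.5 to 37.8 in PDGFRα+SCA1+ cells and 1.05 to 9.86 in PDGFRα-SCA1+ cells. It was higher in PDGFRα+SCA1+ cells than in DCs (adjusted p = 0.033), a call lost with mouse as a block (adjusted p = 0.055).

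In lower glycolysis Pkm, the pyruvate kinase of most non-hepatic cells, read 35.4 to 41.2 in DCs, 96.3 to 134 in PDGFRα+SCA1+ cells, 110 to 165 in PDGFRα+SCA1- cells and 175 to 194 in PDGFRα-SCA1+ cells, and passed against DCs in each (log2 differences 1.55, 1.75 and 2.24, SE 0.23). Pklr, the liver and red cell pyruvate kinase, read 3.79 to 8.01 in DCs, 8.32 to 17 in PDGFRα-SCA1+ cells and at most 0.864 in PDGFRα+ cells. It was at 0 in all PDGFRα+SCA1- samples, at least 33.0-fold below DCs. The 6 erythroid markers summed to 3790 to 8516 in PDGFRα-SCA1+ cells, 546 to 1833 in DCs, 786 to 2718 in PDGFRα+SCA1+ cells and 1167 to 5312 in PDGFRα+SCA1- cells, and their part in the Pklr levels was not tested. Eno1, the common enolase, was highest in DCs at 58.8 to 83.8, against 15.5 to 32.6 over the stromal samples. Eno2, the enolase best known from neurons, read 60.9 to 77.5 in PDGFRα+SCA1+ cells and 29.8 to 103 in PDGFRα+SCA1- cells, and 1.26 to 5.06 in DCs (log2 difference 4.15 ± 0.72 for each, adjusted p = 0.0011 and 0.0010). In PDGFRα-SCA1+ cells it was at 0 to 4.74. Gapdh, Pgk1 and Pgam1 did not pass.

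Of the 6 genes for lactate and pyruvate, Ldha and Slc16a3 were the ones higher in both PDGFRα+ fractions. Ldha, the lactate dehydrogenase subunit that favors lactate formation, read 267, 192 and 172 in DCs and 341 to 529 over the 9 stromal samples, with no overlap. Its log2 differences were 1.03, 0.83 and 0.91 (SE 0.22, adjusted p = 0.0048, 0.015 and 0.0098). Slc16a3, the lactate exporter MCT4, read 0.405 to 4.11 in DCs, 25.8 to 50.2 in PDGFRα+SCA1+ cells and 21.8 to 61.8 in PDGFRα+SCA1- cells (log2 differences 3.97 and 3.98, SE 0.63). It read 4.12 to 14.5 in PDGFRα-SCA1+ cells, where it did not pass (adjusted p = 0.097). Slc16a1, the broadly used transporter MCT1, read 44.9 to 94.4 in DCs and PDGFRα+ cells together and 7.60 to 28.7 in PDGFRα-SCA1+ cells. Ldhb and Pdk4 were lower than in DCs in PDGFRα+SCA1- cells (adjusted p = 0.045 and 0.023), with values of 4.58 to 45.5 and 3.06 to 29.8 that varied widely between mice. Pdk1 did not pass anywhere among the fresh cells.

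The gluconeogenic genes were highest in PDGFRα-SCA1+ cells. Fbp1, fructose-1,6-bisphosphatase, read 76.9, 364 and 128 there, 18.9 to 24.0 in DCs, 5.87 to 26.8 in PDGFRα+SCA1+ cells and 26.6 to 115 in PDGFRα+SCA1- cells. Pck1, which makes phosphoenolpyruvate from oxaloacetate, read 34, 29.4 and 8.15 there and at most 1.14 in DCs. Both passed against DCs (adjusted p = 0.0094 and 0.019). The 12 hepatocyte markers, all present in each population, summed to 4262 to 9149 in PDGFRα-SCA1+ cells, 5962 to 7153 in DCs, 1145 to 3305 in PDGFRα+SCA1+ cells and 1051 to 1951 in PDGFRα+SCA1- cells. Averaged over the 12 markers on the log2(value + 1) scale, which gives each marker the same weight, their level was 7.34, 5.42, 5.10 and 5.24 in the same order. Their part in the result was not tested.

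The HIF alpha subunits were detected in every fresh sample. Epas1, which encodes HIF-2α, read 518, 464 and 439 in PDGFRα-SCA1+ cells, 109 to 129 in both PDGFRα+ fractions and 41.4 to 70.8 in DCs. It was higher than in DCs in all 3 (log2 differences 1.04, 1.15 and 3.12, SE 0.23, adjusted p = 0.0049, 0.0023 and 1.5e-06). Endothelial cells are known to express Epas1, and the endothelial marker sum moved with it, at 16.9 to 19.9 in DCs, 41.1 to 90.8 in PDGFRα+ cells and 7412 to 10083 in PDGFRα-SCA1+ cells. Their part in the result was not tested. Hif1a overlapped among the populations, with 198 to 234 in DCs and 142 to 644 in the stroma. The hydroxylase gene Egln3 was highest in DCs, at 37.8 to 62.1 against 1.54 to 20.8 in the stroma, and Egln1 did not pass.

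Of the 5 hypoxia targets, only Ndrg1, a stress-responsive gene also linked to differentiation, passed among fresh cells. It was highest in DCs at 236 to 330, against 59.1 to 175 over the stromal samples. Bnip3 (a mitophagy receptor), Car9 (a cell surface carbonic anhydrase), Adm (the vasodilator peptide adrenomedullin) and Ankrd37 did not pass against DCs in any fraction. Their samples overlapped with DCs apart from Car9 in PDGFRα+SCA1+ cells, at 0 to 3.5 under the 7.21 to 16.7 of DCs (adjusted p = 0.092), and Ankrd37 in PDGFRα-SCA1+ cells, at 9.06 to 19.8 over the 2.87 to 7.63 of DCs (adjusted p = 0.24).

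Leaving out single samples ended some of these calls. Against DCs, Pfkfb4 and Hk1 in PDGFRα+SCA1+ cells were lost in 5 and 3 of 6 repeats (highest adjusted p = 0.12 and 0.072). Egln3 was lost in 2, 5 and 5 of 6 repeats in the 3 fractions in turn (highest adjusted p = 0.058, 0.097 and 0.12) and Ndrg1 in 2, 1 and 5 of 6 (0.056, 0.070 and 0.14). In PDGFRα+SCA1- cells Ldhb, Pdk4 and Ldha were lost in 4, 4 and 2 of 6 (0.12, 0.076 and 0.066). In PDGFRα-SCA1+ cells Pck1 was lost in 4 of 6 (0.072), and Eno1 without DCs of mouse A (0.057). Undoing the reused totals of the deposited values, described under the processing, also ended calls against DCs. These were Ldhb and Egln3 in PDGFRα+SCA1- cells (limma adjusted p = 0.0964 and 0.0644) and Egln3 in PDGFRα-SCA1+ cells (0.0664).

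Next, the stromal fractions were compared with each other. PDGFRα+SCA1+ and PDGFRα+SCA1- cells did not differ in any member by limma's adjusted p, while 0.435% of all genes were higher in PDGFRα+SCA1+ cells and 0.153% lower (74 and 26 genes, or 31 and 23 with quantile normalization). At an unadjusted p under 0.05, Slc2a1 was higher (7.66% of all genes) and Fbp1, Hif1a and Pfkm were lower (4.0% of all genes). The interval of the difference was wide for most members, for example -0.43 to 1.71 for Hk2 on the log2 scale.

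PDGFRα-SCA1+ cells differed from PDGFRα+SCA1+ cells in 14 members. The 8 higher ones were Fbp1, Pck1, Pklr, Pfkfb3, Ldhb, Epas1, Pfkl and Hk1, and the 6 lower ones were Eno2, Hk2, Pfkfb4, Slc16a3, Slc16a1 and Slc2a1, where 10.9% of all genes were higher and 7.86% lower. The median difference of the members was 0.52 on the log2 scale and that of all genes 0.25. Quantile normalization moved the members to 5 higher and 7 lower and all genes from 1855 higher and 1339 lower to 1412 and 1675. The largest fall was that of Eno2 (-5.23 ± 0.72, SE, adjusted p = 0.00027), and Hk2 fell by 3.74 (adjusted p = 0.00019). With mouse as a block the Hk1 call was lost (adjusted p = 0.056), and with the reused totals undone the Pck1 call was lost (adjusted p = 0.0585). Leaving out single samples ended the calls of Ldhb in 6 of 6 repeats, Hk1 in 5, and Slc16a3 and Pck1 in 4 (highest adjusted p = 0.083, 0.15, 0.074 and 0.15).

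The other genes of these pathways were counted from lists that exclude the members. Of 20 other glycolysis genes tested, 1 was higher and 3 lower than in DCs in PDGFRα+SCA1+ cells, 1 and 5 in PDGFRα+SCA1- cells, and 1 and 2 in PDGFRα-SCA1+ cells. The falls were led in each fraction by Hkdc1, a hexokinase domain protein, with a mean of 93.7 in DCs and at most 0.0196 in the stroma, and Slc2a2, the transporter GLUT2, with a mean of 82.5 in DCs and 0.166 to 1.16 in the stroma. Among 31 other hypoxia response genes 8, 6 and 5 were higher and 3, 5 and 5 lower. Lox, which crosslinks collagen, averaged 201, 124 and 17.1 in the stromal fractions and 0.0893 in DCs, and Angptl4, a lipase inhibitor, averaged 348 in PDGFRα+SCA1+ cells and 34.8 in DCs. Of 17 other pyruvate and gluconeogenesis genes, 0, 1 and 0 were higher and 3, 5 and 4 lower, Pdp1 and G6pc among them in each fraction. In PDGFRα-SCA1+ against PDGFRα+SCA1+ cells the glycolysis, hypoxia and pyruvate lists had 2, 2 and 0 genes higher and 0, 7 and 1 lower, and between the PDGFRα+ fractions none passed in limma, with 2, 3 and 1 at an unadjusted p under 0.05.

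The transwell experiment asked how DCs and SCA1+Msc change when they grow alone or together. In organoids most glycolytic enzymes rose from day 0, while the gluconeogenic genes, Slc2a1 and both HIF alpha subunits fell. In EM organoids 18 of 37 members were higher (48.6%) and 9 lower (24.3%), where 27.1% of the 18117 genes tested were higher and 17.2% lower. In co-cultured organoids 23 were higher (62.2%) and 9 lower (24.3%), where 23.2% and 19.1% of all genes were. The median log2 difference of the members was 1.14 and 1.91, against 0.12 and 0.00 for all genes. Both comparisons share the DCs at day 0. The 10 markers of dividing cells summed to 15.3 to 19.1 at day 0, 244 to 277 in EM organoids and 255 to 296 in co-cultured organoids. The 6 erythroid markers summed to 5207 to 5314 at day 0 and at most 1.37 in organoids, and the 7 macrophage markers to 7869 to 9234 and 2225 to 2627. Ptprc, Adgre1 and Clec4f were at 0 in EM organoids, and Adgre1 and Clec4f in co-cultured organoids, so the macrophage sum there rested on the other markers of the list. The part of each list in these results was not tested. The 2 samples of a group come from 2 littermates, and p-values measure only the spread between such samples.

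**Figure D2:**
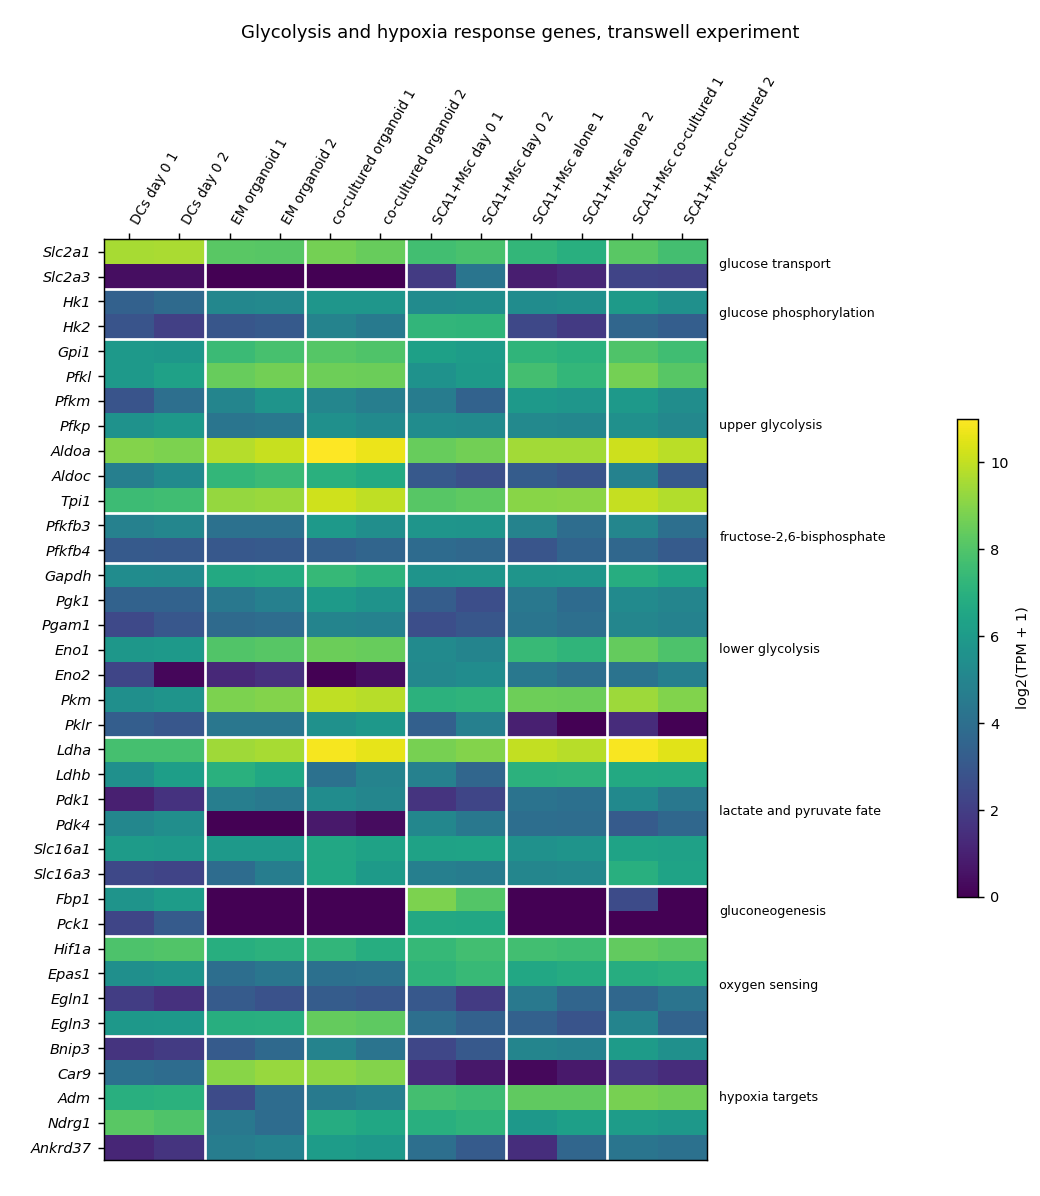
Levels of the 37 genes in the transwell experiment. Rows are genes grouped by role, columns are the 12 samples (group and replicate), and color is log2(TPM + 1). Aldoa, Tpi1, Pkm and Ldha brighten from day 0 to culture in both cell types, Car9 is bright in organoids but dark in SCA1+Msc, and Fbp1 and Pck1 go dark in culture.

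At the entry of glucose the transporter and the hexokinases moved apart. Slc2a1 read 764 and 788 in DCs at day 0, 294 and 284 in EM organoids, and 419 and 351 in co-cultured organoids (log2 differences -1.42 and -1.01, SE 0.18, adjusted p = 0.00016 and 0.0013). Even so, both organoid groups lay above the 120 to 293 of all SCA1+Msc samples, apart from EM organoid replicate 2 at 284. Hk1 read 9.62 and 13.1 in DCs at day 0, 33.5 and 35.6 in EM organoids, and 53.2 and 54.4 in co-cultured organoids, and passed in both. Hk2 read 6.25 and 3.27 at day 0, 6.76 and 7.55 in EM organoids, and 29.2 and 21.9 in co-cultured organoids. It rose in the co-cultured organoids (2.24 ± 0.30, SE, adjusted p = 0.00027) and did not pass in EM organoids (adjusted p = 0.17).

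Of the 7 genes of upper glycolysis 6 rose in each organoid group, where 27.1% (EM) and 23.2% (co-cultured) of all genes were higher. Aldoa read 497 and 461 in DCs at day 0, 888 and 1083 in EM organoids, and 1991 and 1624 in co-cultured organoids. Tpi1, triose phosphate isomerase, read 186 and 194, 606 and 642, and 1165 and 994 in the same order. Pfkl, the liver-type phosphofructokinase, went from 59.2 and 76.5 to 344 and 405 and to 377 and 365, whereas the platelet type Pfkp fell in EM organoids from 47.8 and 57.3 to 18.3 and 19.9 (adjusted p = 0.00021) and read 44.5 and 36.9 in co-cultured organoids. Aldoc, the aldolase found in DCs but not in PDGFRα+ cells above, rose to 154 and 179 in EM organoids and to 124 and 104 in co-cultured organoids, from 26.0 and 37.9. In lower glycolysis, Pkm had the largest rise, from 43.1 and 50.6 to 457 and 499 and to 985 and 907 (log2 differences 3.33 and 4.31, SE 0.15, adjusted p = 4.5e-07 and 1.3e-07). Eno1, Gapdh, Pgk1 and Pgam1 rose in both organoid groups by 1.14 to 2.61 on the log2 scale. Pklr rose in co-cultured organoids, from 8.62 and 6.96 to 45.8 and 57.0 (adjusted p = 0.0048), a call lost with a pseudocount of 0.1 (adjusted p = 0.152). Slc2a3 and Eno2 were at most 0.321 and 3.90 in every ductal sample, and Pfkfb4 read 7.07 to 10.9.

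The genes that direct pyruvate showed opposite changes within families. Ldha read 216 and 217 in DCs at day 0, 693 and 760 in EM organoids, and 1835 and 1527 in co-cultured organoids (log2 differences 1.74 and 2.94, SE 0.15). Ldhb, the subunit that favors pyruvate formation, read 45.3 and 70.8, 125 and 91.9, and 16.0 and 28.9, and was lower in co-cultured organoids than at day 0 (-1.35 ± 0.40, SE, adjusted p = 0.021). Pdk1, a kinase that inhibits pyruvate dehydrogenase and a HIF target, rose from 0.941 and 2.05 to 24.9 and 20.9 and to 39.9 and 32.4. Pdk4, the kinase of the same family known to rise on fasting, was at 32.7 and 42.1 in DCs at day 0 and at 0 in both EM organoid samples, at least 279.6-fold lower, and read 0.668 and 0.302 in co-cultured organoids. Slc16a3 rose from 4.26 and 3.76 to 13.6 and 24.3 and to 92.5 and 62.7 (log2 differences 1.94 and 3.95, SE 0.29).

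Both gluconeogenic genes fell to 0 in organoids. Fbp1 read 51.1 and 67.0 at day 0 and 0 in all 4 organoid samples, at least 214-fold lower in EM organoids and 253-fold lower in co-cultured organoids. Pck1 read 3.90 and 8.02 at day 0 and 0 in all 4, at least 43.5-fold and 51.3-fold lower. The hepatocyte markers moved with them, with all 12 present and a sum of 4946 to 6040 at day 0. The sum was 1533 to 1644 in EM organoids, with Cps1 and Hpd at 0, and 196 to 476 in co-cultured organoids, with Cps1, Tat and Hpd at 0. Their part in the result was not tested.

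Among the oxygen sensors and hypoxia targets the organoids were mixed. Hif1a, which encodes HIF-1α, fell from 239 and 254 to 119 and 133 in EM organoids and to 148 and 114 in co-cultured organoids, and Epas1 from 43.7 and 48.8 to 14.8 and 18.7 and to 15.7 and 16.5. HIF alpha subunits are controlled mainly through protein stability, which RNA does not show. Car9 read 15.8 and 13.8 at day 0, 522 and 634 in EM organoids, and 567 and 492 in co-cultured organoids (log2 differences 5.19 and 5.07, SE 0.28, adjusted p = 1.1e-06 and 1.5e-06). This was the largest rise of any member in each organoid group. Ankrd37, a strongly HIF-induced gene, rose from 1.28 and 2.18 to 24.0 and 28.2 and to 66.4 and 57.5, and Bnip3 from 2.10 and 2.75 to 7.80 and 12.4 and to 29.0 and 17.9. Egln3 rose in co-cultured organoids, from 57.2 and 60.8 to 333 and 307 (adjusted p = 0.0011), and read 120 and 122 in EM organoids (adjusted p = 0.069). By contrast, 2 of the 5 targets fell in both groups: Adm went from 121 and 129 to 4.76 and 14.0 and to 22.1 and 26.9, and Ndrg1 from 291 and 248 to 20.3 and 13.7 and to 111 and 94.1. Leaving out single samples ended the calls of Pfkm and Pgk1 in 2 and 1 of 4 repeats for EM organoids (highest adjusted p = 0.073 and 0.062). For co-cultured organoids it ended those of Egln1 (4 of 4, 0.19), Pfkm (3, 0.23), and Aldoc, Ldhb and Slc16a1 (2 each, 0.093, 0.17 and 0.085).

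**Figure D3:**
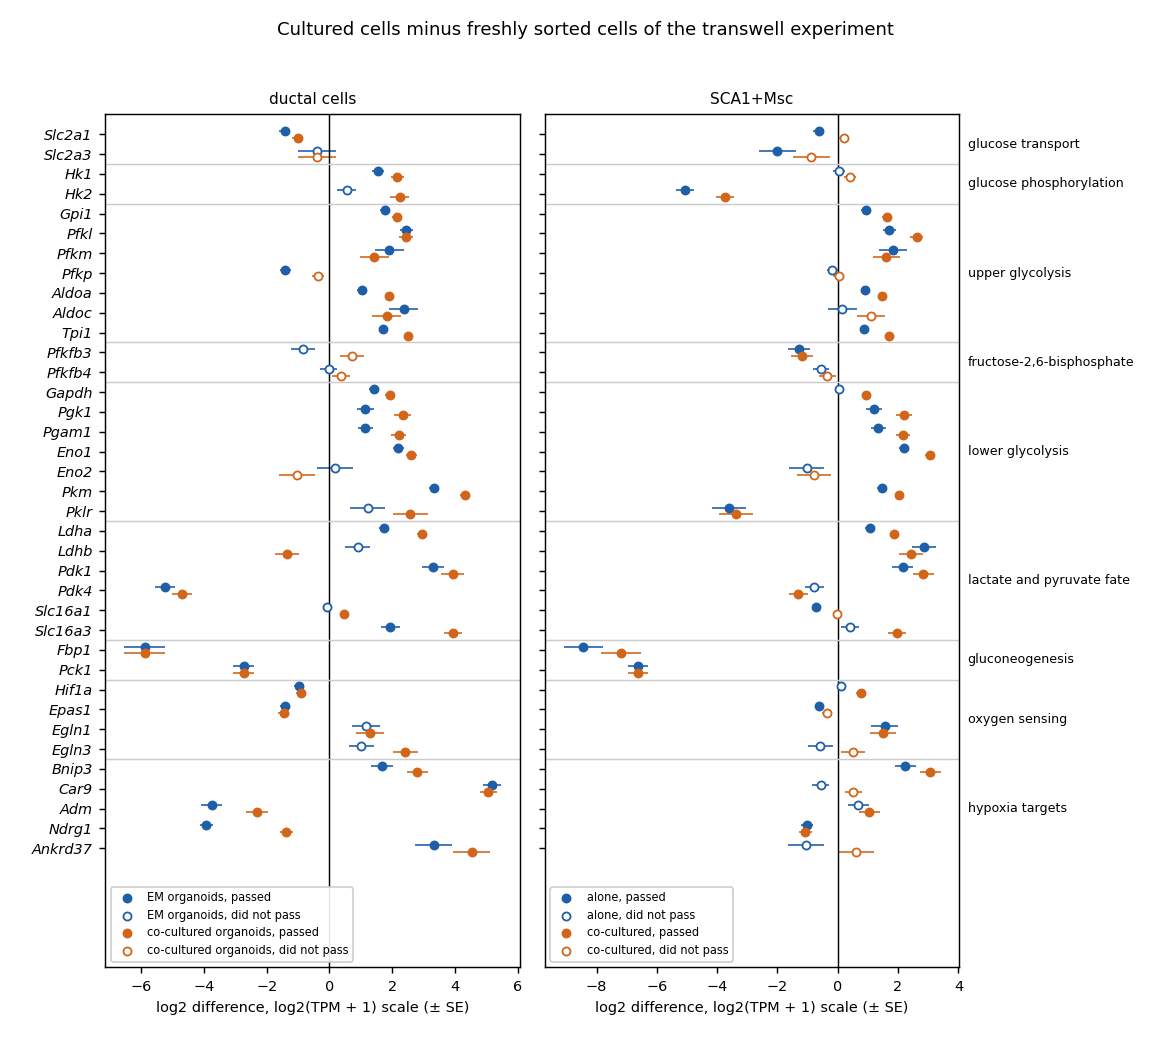
Log2 difference of each member from day 0, in DCs (left) and SCA1+Msc (right), on the log2(TPM + 1) scale with SE. Blue marks EM organoids and lone SCA1+Msc, and orange marks co-cultured cells. EM organoids and co-cultured organoids also differed in medium. Filled points passed the adjusted test. Most glycolytic enzymes lie to the right of 0 in both cell types, with Pfkp in EM organoids and Pfkfb3 and Pklr in SCA1+Msc among those to the left. Hk2 lies to the right in organoids and far to the left in SCA1+Msc, and Car9 is at about 5 in organoids and near 0 in SCA1+Msc. Points for genes at 0 in 1 group (Fbp1 and Pck1, and in organoids Slc2a3 and Pdk4) depend on the added 1 and are not bounds.

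Because members such as Ldha, Pgk1, Slc16a3 and Car9 rose together in co-cultured organoids, the 250 bases before their annotated start sites were read (RefSeq, GRCm38.p6, the build of the files). Of the forms of the HIF core only ACGTG was searched, on both strands, and GCGTG was not. On the other strand ACGTG reads CACGT, and the palindrome CACGTG, which is also the E-box of other factors, counts on both strands. Of the 37 members 34 had a listed promoter, and 17 of these (50%) held ACGTG before at least 1 start site, against 4998 of 27025 genes (18.5%). Counted by start site the shares were 20 of 48 (41.7%) and 5444 of 32851 (16.6%). The members were listed as glycolysis and hypoxia response genes, known HIF targets among them. The higher share thus follows in part from the choice of list and does not bear on why members rose, which was not tested. A match is a description of the sequence, not evidence of binding. The sequences of these 4 were picked because they hold ACGTG before genes that rose, with capitals marking each match. They lie at chr7:46845554-46845803 on the plus strand (5 matches, the nearest 34 bases before the start), chrX:106186850-106187099 on the plus strand (2), chr11:120948817-120949066 on the plus strand (2, the nearest at 14 bases) and chr4:43506776-43507025 on the plus strand (1, at 18 bases).
Ldha: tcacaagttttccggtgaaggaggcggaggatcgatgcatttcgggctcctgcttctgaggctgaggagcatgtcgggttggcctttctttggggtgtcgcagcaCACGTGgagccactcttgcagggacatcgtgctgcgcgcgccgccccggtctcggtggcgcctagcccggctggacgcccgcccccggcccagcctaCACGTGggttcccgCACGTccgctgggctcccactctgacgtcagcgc
Pgk1: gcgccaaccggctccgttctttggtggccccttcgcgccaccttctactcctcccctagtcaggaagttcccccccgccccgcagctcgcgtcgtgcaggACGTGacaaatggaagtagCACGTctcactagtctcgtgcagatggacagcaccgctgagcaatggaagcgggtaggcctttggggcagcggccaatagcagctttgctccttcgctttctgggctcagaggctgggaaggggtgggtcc
Slc16a3: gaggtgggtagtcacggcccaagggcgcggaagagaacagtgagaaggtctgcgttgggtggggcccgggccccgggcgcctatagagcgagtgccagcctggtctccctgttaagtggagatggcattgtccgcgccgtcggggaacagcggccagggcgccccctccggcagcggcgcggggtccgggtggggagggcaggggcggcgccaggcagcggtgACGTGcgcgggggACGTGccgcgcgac
Car9: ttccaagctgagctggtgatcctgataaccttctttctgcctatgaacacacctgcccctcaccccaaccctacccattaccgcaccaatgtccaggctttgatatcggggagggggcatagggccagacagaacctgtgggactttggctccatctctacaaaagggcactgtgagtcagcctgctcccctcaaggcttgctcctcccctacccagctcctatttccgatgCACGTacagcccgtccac

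Other members that rose in co-cultured organoids held no ACGTG before any listed start site: Hk1, Gpi1, Pfkl, Aldoc, Tpi1, Gapdh, Eno1, Pklr and Pdk1. The second start site of Ldha had none either. Other forms of the core were not searched in these promoters. Slc2a1 and Hif1a, which fell in organoids, and Hk2, which fell in SCA1+Msc, held ACGTG as well, the nearest 36, 70 and 52 bases before the start. Fbp1 and Pck1 did not hold ACGTG.

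Co-cultured organoids were then compared directly with EM organoids. Most members that passed were higher in co-culture: of all members 13 were higher (35.1%) and 1 lower (2.70%), where 5.72% of all genes were higher and 7.20% lower. The median log2 difference was 0.56, or 0.63 with members at 0 in 1 group at their bound, and -0.13 over all genes. The 13 were Hk2, Pfkp, Aldoa, Tpi1, Pfkfb3, Pgk1, Pgam1, Pkm, Ldha, Slc16a1, Slc16a3, Adm and Ndrg1, and the lower one was Ldhb. Ndrg1 had the largest difference (2.55 ± 0.20, SE, adjusted p = 6.4e-05), from 20.3 and 13.7 in EM organoids to 111 and 94.1, followed by Slc16a3 (2.0 ± 0.29, adjusted p = 0.0021) and Hk2 (1.69 ± 0.30, adjusted p = 0.0055). Ldhb was lower by -2.26 ± 0.40 (adjusted p = 0.0053). Pfkfb3 read 16.2 and 16.1 in EM organoids and 58.4 and 42.5 in co-cultured ones. Car9 (522 to 634 and 492 to 567) and Pfkl (344 to 405 and 365 to 377) overlapped, with intervals of the difference of -0.76 to 0.51 and -0.50 to 0.49. Hif1a and Epas1 also overlapped.

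The 14 calls rested on the spread shared over all 6 groups. With only these 4 samples fitted 5 members passed, of which 3 were among the 14, and Ldhb was not one of them. There were 9 calls without EM organoid replicate 1 and 7 without co-cultured organoid replicate 1. Leaving out single samples ended the calls of Pfkfb3, Pgk1 and Pgam1 in 4 of 4 repeats (highest adjusted p = 0.17, 0.14 and 0.10), Slc16a1 in 3 (0.125), Adm and Ldhb in 2 (0.14 and 0.060), and Hk2 without co-cultured organoid replicate 1 (0.058). Ndrg1, Slc16a3, Ldha, Tpi1, Pkm, Aldoa and Pfkp passed in all 4 repeats.

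In SCA1+Msc most glycolytic enzymes were also higher in culture than at day 0, while Hk2, Pklr, Fbp1 and Pck1 were lower. Cultured alone, 14 members were higher than at day 0 (37.8%) and 10 lower (27.0%), where 27.4% of all genes were higher and 17.5% lower. In co-culture 18 were higher (48.6%) and 7 lower (18.9%), where 26.0% and 17.3% of all genes were. The median log2 difference of the members was 0.05 and 0.76, and that of all genes 0.18 and 0.17. Both comparisons share SCA1+Msc at day 0, in which hepatocyte markers summed to 25544 to 30547 and erythroid markers to 8678 to 10762, against at most 483 and 1.81 in culture, and the markers of dividing cells rose from 7.10 to 14.7 to 118 to 194. The endothelial markers summed to 698 to 770 at day 0 and to 200 to 360 in culture. The part of each in these results was not tested.

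Hk2 had the largest fall among members measured in all groups. It read 149 and 144 at day 0, 4.24 and 2.71 in SCA1+Msc alone, and 11.3 and 8.86 in co-culture (log2 differences -5.06 and -3.74, SE 0.30, adjusted p = 2.0e-06 and 1.2e-05). Hk1 read 38.4 to 62.0 throughout and did not pass. Slc2a3 read 2.76 and 18.2 at day 0, 0.899 and 1.35 alone, and 3.73 and 3.5 in co-culture, with day 0 samples that differed widely from each other. Slc2a1 fell in lone SCA1+Msc from 203 and 226 to 157 and 120 (adjusted p = 0.015).

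Of the 14 genes of upper and lower glycolysis 9 rose in lone SCA1+Msc and 10 in co-culture, where 27.4% and 26.0% of all genes were higher. Eno1 rose most, from 36.9 and 30.6 to 168 and 146 alone and to 339 and 242 in co-culture (log2 differences 2.19 and 3.05, SE 0.17, adjusted p = 9.0e-06 and 1.3e-06). Pfkl read 48.3 and 62.2, 211 and 157, and 410 and 284, and Pkm 134 and 140, 385 and 368, and 671 and 479. Pklr was the exception, falling from 9.39 and 26.9 to 0.926 and 0 alone and to 1.66 and 0 in co-culture. It is a hepatocyte and red cell enzyme, and the part of such cells in its fall was not tested. Ldha rose from 422 and 497 to 1025 and 898 and to 1928 and 1469. Unlike in co-cultured organoids, Ldhb rose too, from 27.6 and 11.4 to 133 and 137 and to 103 and 99.3. Slc16a3 read 26.2 and 23.9 at day 0 and 32.1 and 34.7 alone (adjusted p = 0.30), and rose to 121 and 83.2 in co-culture (1.96 ± 0.29, SE, adjusted p = 0.00056).

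Fbp1 read 455 and 262 in SCA1+Msc at day 0, 0 alone, and 4.64 and 0 in co-culture, at least 1499-fold lower alone. Pck1 read 99.3 and 95 at day 0 and 0 in all 4 cultured samples, at least 818-fold and 703-fold lower. Both are genes of hepatocytes, whose markers fell in the same comparison as given above, and the part of hepatocyte RNA in these falls was not tested.

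Among oxygen sensors and targets, Bnip3 rose from 4.09 and 7.36 to 31.1 and 28.4 alone and to 64.3 and 44.5 in co-culture. Hif1a read 163 and 203 at day 0 and 200 and 193 alone, and rose to 331 and 286 in co-culture (adjusted p = 0.0031). Adm read 211 and 188, 318 and 322, and 429 and 394, and passed in co-culture (adjusted p = 0.033). Ndrg1 fell in both, from 123 and 143 to 58.0 and 72.3 and to 67.5 and 57.8. Car9 stayed between 0.170 and 2.33 in all 6 SCA1+Msc samples. Leaving out single samples ended the calls of Pfkfb3 in 3 of 4 repeats for each culture (highest adjusted p = 0.14 and 0.20), of Pfkm (0.076 and 0.13) and Egln1 (0.13 and 0.13) in 2 each, and of Adm in 4 of 4 (0.14). In lone SCA1+Msc Slc2a1, Slc2a3 and Epas1 were lost in 2 (0.12, 0.10 and 0.081) and Pgk1 without its replicate 1 (0.052), and in co-culture Pdk4 was lost without its replicate 1 (0.063).

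In co-cultured against lone SCA1+Msc, which shared a medium, only Tpi1 passed. It read 524 and 543 alone and 1045 and 860 in co-culture (0.83 ± 0.11, SE, adjusted p = 0.039), where 0.0938% of all genes were higher and 0.0331% lower. The call was lost without either lone sample and without co-cultured replicate 1 (highest adjusted p = 0.21). At an unadjusted p under 0.05, 19 of 37 members were higher and 0 lower, where 3.42% of all genes were higher and 3.54% lower. The median log2 difference was 0.69 for the members and 0.00 for all genes. The co-cultured samples differed from each other: all 37 members summed to 6238.5 to 7973.1 there and to 4336.5 to 4594.1 alone. Members that shift together between samples are not independent, so the 19 do not count as 19 separate results. With only these groups fitted 0 members passed the adjusted test. The 19 were Slc2a1, Hk2, Gpi1, Pfkl, Aldoa, Tpi1, Gapdh, Pgk1, Pgam1, Eno1, Pkm, Ldha, Slc16a1, Slc16a3, Hif1a, Egln3, Bnip3, Car9 and Ankrd37. Ldha read 1928 and 1469 in co-culture against 1025 and 898 alone (0.81 ± 0.15, limma adjusted p = 0.11). Slc16a3 read 121 and 83.2 in co-culture against 32.1 and 34.7 alone (1.56 ± 0.29, limma adjusted p = 0.12).

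**Figure D4:**
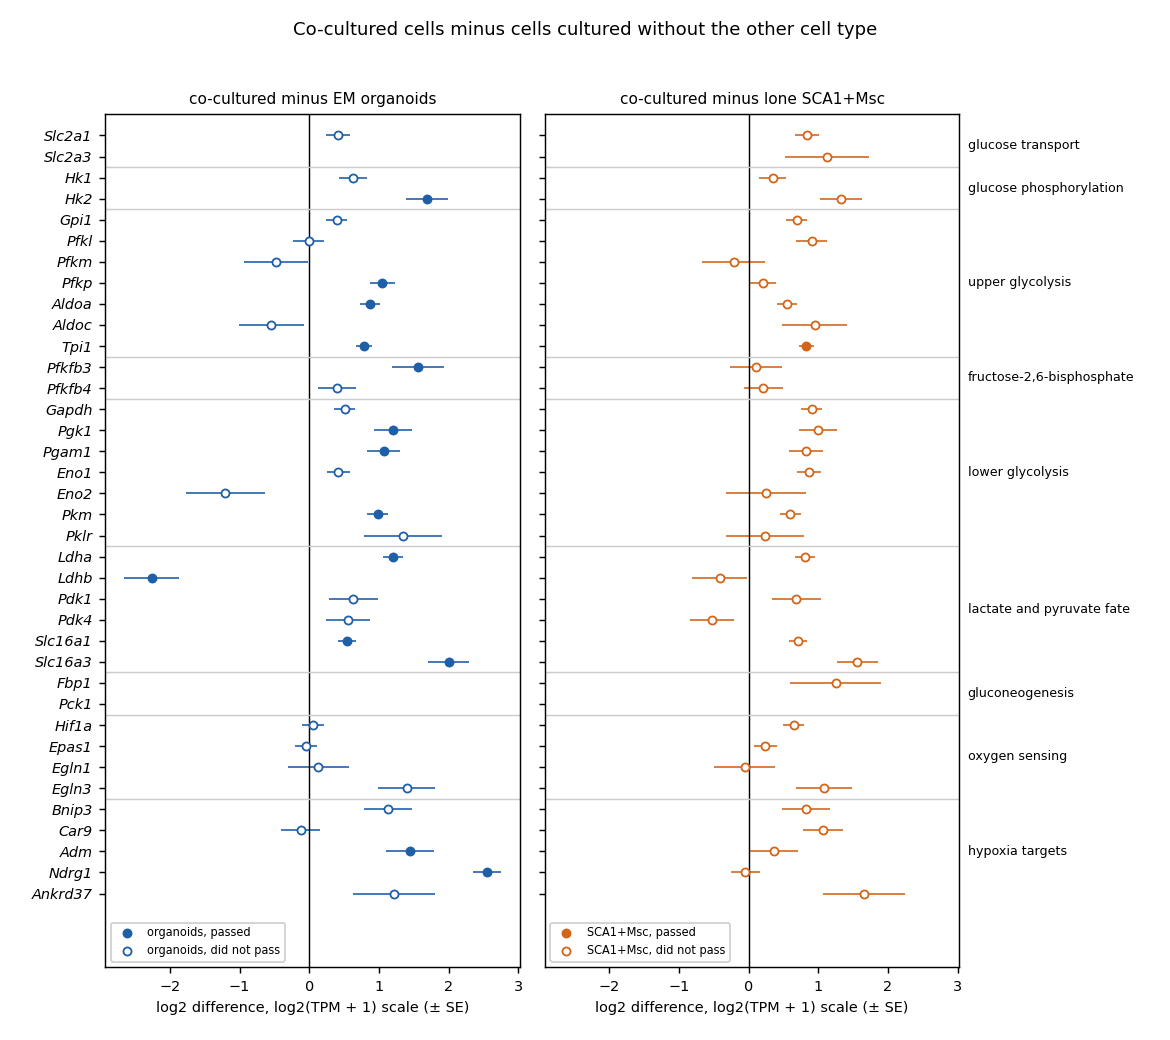
Log2 difference of each member between co-cultured and EM organoids (left) and between co-cultured and lone SCA1+Msc (right), on the log2(TPM + 1) scale with SE. Filled points passed the adjusted test, and members at 0 in both groups are left out. In organoids 13 filled points lie to the right of 0 and Ldhb to the left. In SCA1+Msc Tpi1 is the 1 filled point.

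Whether the 2 cell types changed differently between day 0 and co-culture was tested as an interaction, the change of SCA1+Msc minus the change of DCs. The SCA1+Msc change includes their earlier expansion on the plate. The cultured cells of the 2 types came from different animals, so cell type and animal cannot be told apart. The change differed for 19 members: it was higher in SCA1+Msc for 6 (16.2%) and lower for 13 (35.1%), where 14.5% of all genes were higher and 13.8% lower. Hk2 had the largest difference of any member, since it rose in DCs and fell in SCA1+Msc (-5.98 ± 0.42, SE, adjusted p = 1.8e-05). Car9 (-4.56 ± 0.40) and Ankrd37 (-3.95 ± 0.84) rose in DCs and did not pass in SCA1+Msc. Hif1a (1.67 ± 0.22), Ldhb (3.79 ± 0.56) and Adm (3.36 ± 0.49) fell in DCs and rose in SCA1+Msc. For Pkm and Ldha, which rose in both, the rise was larger in DCs (-2.27 ± 0.21 and -1.07 ± 0.21). For Pfkl, Aldoa, Pgk1, Pgam1, Eno1 and Bnip3, which also rose in both, no difference was detected, with intervals of -0.53 to 0.87 for Pfkl and -0.80 to 0.72 for Pgam1. Pklr and Pck1 are among the 19. SCA1+Msc at day 0 held hepatocyte RNA, and its part in these calls was not tested. The calls of Pfkfb3 and Egln3 were each lost in 6 of 8 repeats without 1 sample (highest adjusted p = 0.095 and 0.11).

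**Figure D5:**
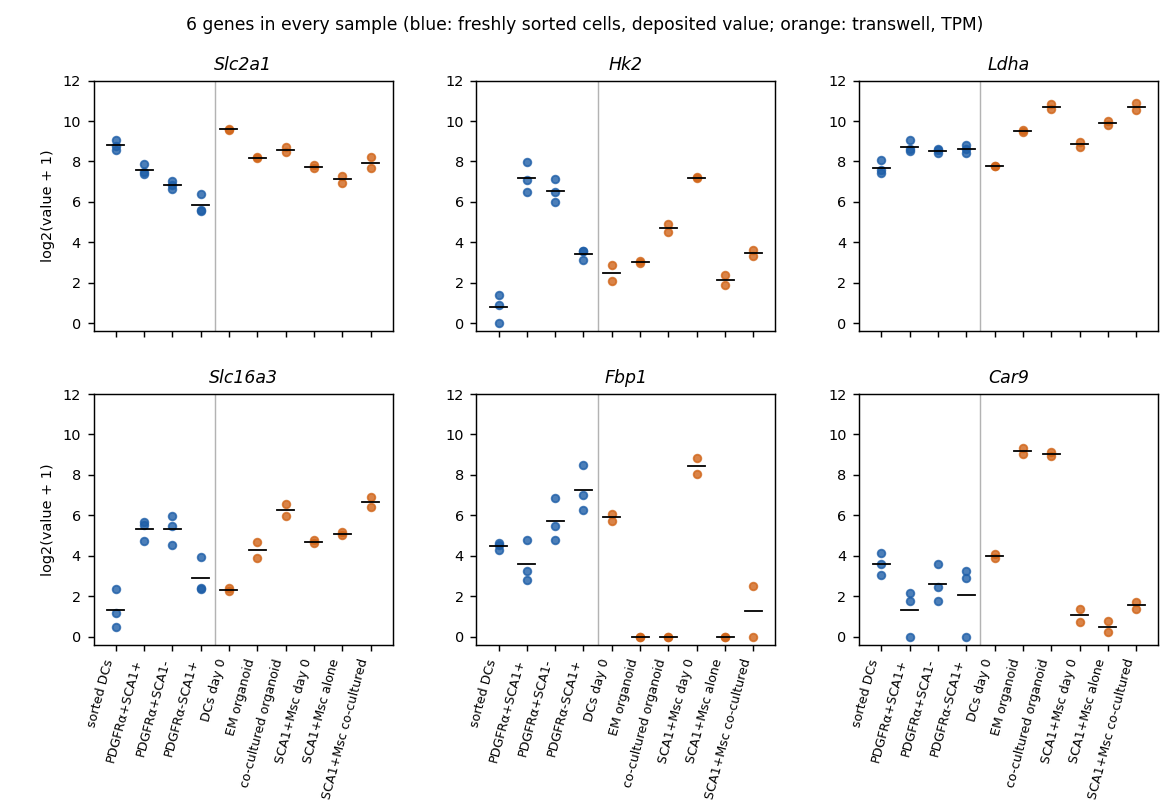
Slc2a1, Hk2, Ldha, Slc16a3, Fbp1 and Car9 in every sample. Each point is 1 sample, black lines are group means, and the vertical axis is log2(value + 1), with deposited values for freshly sorted cells (blue, 3 mice) and TPM for the transwell (orange, 2 samples). Hk2 is highest in PDGFRα+ cells and SCA1+Msc at day 0, Car9 in organoids, and Fbp1 is at 0 in organoids and lone SCA1+Msc.

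In the transwell experiment the same lists were counted. Against day 0, 27.1% of all genes were higher and 17.2% lower in EM organoids, and 23.2% and 19.1% in co-cultured organoids. Between co-cultured and EM organoids the shares were 5.72% and 7.20%. Of 21 other glycolysis genes tested, 8 were higher and 4 lower in EM organoids than at day 0 and 9 and 2 in co-cultured organoids. Pgm2, a phosphoglucomutase, had the largest rise in both, from a mean of 18.4 to 133 and 187, and Slc2a2 fell from 19.9 to 0.690 and 1.22. Of 18 other pyruvate and gluconeogenesis genes 8 and 9 were higher and 2 and 3 lower. They included Bsg, the chaperone that carries lactate transporters to the cell surface, from 516 to 3013 and 3450. Fbp2, the muscle-type bisphosphatase, averaged 63.8 in co-cultured organoids, 2.13 in EM organoids and 0 at day 0. Of 34 other hypoxia response genes 10 and 15 were higher and 8 and 10 lower. Fam162a, a HIF-responsive mitochondrial gene, rose from 63.6 to 472 and 738, and Hmox1, heme oxygenase, fell from 2573 to 51.6 and 98.2. Vegfa, the angiogenic growth factor, fell in co-cultured organoids from 28.9 to 10.3. Between co-cultured and EM organoids the lists had 3, 1 and 8 genes higher and 1, 1 and 1 lower, with Angptl4 at 64.5 and 4.93.

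In SCA1+Msc the other glycolysis genes split evenly, with 5 higher and 7 lower alone and 6 and 6 in co-culture. Of all genes 27.4% were higher and 17.5% lower alone, and 26.0% and 17.3% in co-culture. Of the other hypoxia response genes 15 and 14 were higher and 9 and 7 lower. Among them P4ha2, a collagen prolyl hydroxylase, rose from 20.8 to 102 and 149, and Hmox1 fell from 2600 to 125 and 153. Of the other pyruvate and gluconeogenesis genes 8 and 7 were higher and 3 and 3 lower, with Pck2, the mitochondrial form of Pck1, rising from 41.4 to 163 and 196. Between co-cultured and lone cells Mif, a cytokine gene, alone passed, with means of 603 and 275 (limma adjusted p = 0.038). At an unadjusted p under 0.05, 2, 2 and 7 genes of the glycolysis, pyruvate and hypoxia lists did so, where 3.42% of all genes were higher and 3.54% lower. The interaction had 0, 3 and 7 genes higher and 3, 6 and 4 lower, where 14.5% of all genes were higher and 13.8% lower. Plod2, a collagen lysyl hydroxylase, was the largest of the hypoxia list toward SCA1+Msc (2.95 ± 0.30, SE, limma adjusted p = 0.00016).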

How the data were processed

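Bulk Smart-seq2 libraries, which do not mark strand, were made by the authors, aligned with STAR 2.5.0a to GRCm38, filtered on mapping quality with SAMtools and counted per Ensembl gene with featureCounts 1.6.0, per the processing notes and the study's methods. The authors deposited the freshly sorted cells as a per-length signal named TPM, whose columns do not share the fixed sum of TPM: the totals had been reused down the table in a cycle of 12, so that a deposited value was 0.722 to 1.39 times the true TPM. These values were used as deposited, and undoing the totals was an alternative. The transwell table was deposited by the authors as RPKM and was divided here by each column's sum to give TPM. The 4 columns of pooled means and all columns of the authors' own comparisons (fold changes and p-values) were not used, and 26 symbols that a spreadsheet had turned into dates were left unmatched.

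Groups were compared with limma 3.58.1 (R 4.3.3, trended variance, two-sided) on log2(value + 1), fitting all 12 samples of an experiment together with a mean for each group, among genes at 1 or more in at least 3 (freshly sorted) or 2 (transwell) samples, and Benjamini-Hochberg adjustment over all genes tested at a threshold of 0.05. All 37 members were tested in both. The freshly sorted populations come from the same mice, so mouse letters pair the samples. Deviations of same-letter samples from their group means correlated at 0.010 to 0.097, and a fit with mouse as a block was an alternative. Other alternatives were a pseudocount of 0.1, quantile normalization, no filter, RPKM as deposited, only the groups compared, and leaving out each sample. Reads were recovered from the low values (up to 20 reads, within 0.02 of whole), and no replicates agreed within counting error. Promoters were read from RefSeq. Text tables were handled with Python 3.11.15 and pandas 2.3.3. The test was checked on simulated data. Named genes were the members, and for other pathway genes up to 3 with the largest change in each direction among those that passed; not every gene this rule picks is reported here. The members and all lists (other pathway genes and markers of ductal, mesenchymal, endothelial, hepatocyte, erythroid, macrophage and dividing cells) were chosen with earlier results of these data known.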

Additional observations from a re-analysis of the deposited data

Results flagged for a closer look

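The change from day 0 to co-culture differed between SCA1+Msc and DCs for 19 members by the interaction term (limma, adjusted p under 0.05), given here as the change of SCA1+Msc minus that of DCs on the log2(TPM + 1) scale. It was above 0 for Ldhb (3.79), Pdk4 (3.38), Adm (3.36), Hif1a (1.67), Slc2a1 (1.21) and Epas1 (1.10). It was below 0 for Hk2 (-5.983), Pklr (-5.956), Car9 (-4.56), Ankrd37 (-3.947), Pck1 (-3.885), Pkm (-2.266), Slc16a3 (-1.986), Egln3 (-1.916), Pfkfb3 (-1.905), Hk1 (-1.77), Ldha (-1.07), Gapdh (-0.9831) and Tpi1 (-0.7974).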

How the results depend on the processing

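Of 202 calls of single members, 8 were lost with a pseudocount of 0.1, 10 with quantile normalization and 3 with the replicate block, 4 of 60 with the totals undone and 0 of 142 with RPKM as deposited, and 139 of 1004 repeats without 1 sample lost a call. None turned direction, and the causes were not tested. Between PDGFRα+SCA1+ and PDGFRα+SCA1- cells the count of members called was 0, and 0 to 1 without 1 sample, the 1 being without PDGFRα+SCA1- mouse E. For co-cultured against EM organoids it was 14, 5 with only these groups fitted (3 of them among the 14) and 7 to 10 without 1 sample. For co-cultured against lone SCA1+Msc it was 1, 0 with only these groups fitted and 0 to 1 without 1 sample. Transwell replicate numbers are not known to mark a shared animal, and same-numbered samples correlated at 0.004 to 0.029. With that number as a replicate block the last count was 0 (Tpi1, adjusted p = 0.0898). With mouse as a block no call was lost beyond Pfkfb4 and Hk1 above, and in PDGFRα+SCA1- cells against DCs 9 members were lower in place of 8. Quantile normalization moved the median log2 difference of all genes from -0.28 to -0.10 in PDGFRα+SCA1+ and from -0.47 to -0.13 in PDGFRα+SCA1- cells against DCs, from 0.25 to 0.04 in PDGFRα-SCA1+ against PDGFRα+SCA1+ cells, from 0.15 to 0.01 between the PDGFRα+ fractions, from 0.12 to 0.00 in EM organoids against day 0 and from -0.13 to -0.01 in co-cultured against EM organoids.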
